A study of Rattus norvegicus with 43 samples.

Results

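Rat primary hepatocytes (RPH) kept for 48 h in culture were compared with the fresh cell pellet of the same animals, taken right after isolation and called 0 h. The comparison used 6 of the 15 samples of the series, 3 at each time, and 17 of its 43 arrays, 9 at 0 h and 8 at 48 h, because 1 array of rat 2 at 48 h had been left out by the authors for quality. Samples were chosen by the time in their titles and paired by the number of the rat. All came from the same 3 male Sprague Dawley rats, whose ages were not given, and no sample received a test compound. Cells were released by perfusion of the liver and plated on collagen in William's E medium with glutamate, gentamicin, insulin, transferrin and dexamethasone. Serum was present for the first 4 h and absent afterwards, so that the 48 h cells had experienced plating, serum, its withdrawal and dexamethasone, and the 0 h cells none of these. The liver sample of each rat was a lobe that had been ligated ahead of the perfusion, and cells taken at 4 h and 24 h completed the series.

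Hepatocytes in the liver are polarized epithelial cells that secrete most plasma proteins, clear bile acids and drugs, and divide metabolic work between the periportal and the pericentral end of each lobule. Isolation removes their contacts with neighboring cells, blood and matrix, and a stiff, flat, collagen-coated surface is known to favor spreading and the loss of liver-specific expression that is called de-differentiation. A network of factors that includes HNF4A, C/EBPα, FOXA proteins and nuclear receptors keeps up the liver program, while serum response factor, YAP with TEAD, and AP-1 are known to act on genes of the cytoskeleton, adhesion and injury.

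Each value below is a MAS5 signal, an intensity that the authors scaled to a trimmed mean of 500 on every array, and technical arrays of a rat were averaged on the log2 scale. Changes are log2 fold changes of 48 h over 0 h ± their standard error (n = 3 rats at each time) from limma with the rat as a block, and a gene is said to have risen or fallen where its p adjusted over 10649 genes was under 0.05. Signals of different genes come from different probes and were not set against each other, and where they were summed over a list the sum follows its brightest members. The arrays measure a mixture of cells, in which fewer cells of a type and less RNA per cell cannot be told apart. For β-actin the 3′ probe set over the 5′ one, a measure of RNA integrity, gave 3.95 ± 0.683 at 0 h and 2.22 ± 0.254 at 48 h (SD, n = 3), and its part in the differences below was not tested. Defining hepatocyte genes were bright in the pellet, with signals of 26965, 40544 and 30853 for Alb and 28963, 35562 and 30876 for Ttr. In a fit over all 15 samples the pellet differed from liver at 61 genes (0.573% of those tested), 15 higher (0.141%) and 46 lower (0.432%). That fit had no rat block, and the β-actin ratio of the livers was 6.99, 3.22 and 3.68. Genes that did not pass were thus not shown to equal liver. Median log2 fold changes from liver to pellet were -0.62 for endothelial, -0.76 for Kupffer cell and -2.96 for erythroid lists. Of their members 2 of 27, 0 of 23 and 3 of 7 passed as lower. For hepatocyte transcription factors the median was 0.06. The paper calls this step relatively large.

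Promoters of 4 genes that stand for the main patterns are shown first, from 250 bases before to 50 bases after the start of the gene (RefSeq, GRCr8). Acta1, muscle α-actin, was among the genes with the largest rises and carries a CArG box, the element bound by serum response factor, in capitals (chr19:68784145-68784444, minus strand), and Ccn2, a matricellular growth factor, rose with 3 copies of the TEAD motif GGAATG (chr1:22624565-22624864, minus strand). Alb (chr14:17906930-17907229, minus strand) and Fabp1 (chr4:104749090-104749389, plus strand) both hold the HNF1 core GTTAAT, yet Alb, the gene of serum albumin, did not pass the test and Fabp1, the liver fatty acid binding protein, lost most of its signal.
Acta1: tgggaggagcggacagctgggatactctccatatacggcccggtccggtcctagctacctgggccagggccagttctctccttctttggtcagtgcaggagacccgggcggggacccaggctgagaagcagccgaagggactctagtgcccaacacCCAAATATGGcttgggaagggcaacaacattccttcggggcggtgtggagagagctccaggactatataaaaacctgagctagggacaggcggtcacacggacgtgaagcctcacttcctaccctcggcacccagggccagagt
Ccn2: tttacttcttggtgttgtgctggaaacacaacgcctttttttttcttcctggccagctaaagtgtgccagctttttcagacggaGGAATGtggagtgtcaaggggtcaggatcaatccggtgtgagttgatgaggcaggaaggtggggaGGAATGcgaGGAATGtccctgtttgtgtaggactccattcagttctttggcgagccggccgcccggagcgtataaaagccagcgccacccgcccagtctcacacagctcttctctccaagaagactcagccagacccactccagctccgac
Alb: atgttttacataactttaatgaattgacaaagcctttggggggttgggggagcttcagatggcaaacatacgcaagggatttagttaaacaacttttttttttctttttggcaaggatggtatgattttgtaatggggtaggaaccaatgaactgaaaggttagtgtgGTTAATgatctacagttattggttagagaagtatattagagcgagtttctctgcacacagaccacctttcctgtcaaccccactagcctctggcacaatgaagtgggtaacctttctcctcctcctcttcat
Fabp1: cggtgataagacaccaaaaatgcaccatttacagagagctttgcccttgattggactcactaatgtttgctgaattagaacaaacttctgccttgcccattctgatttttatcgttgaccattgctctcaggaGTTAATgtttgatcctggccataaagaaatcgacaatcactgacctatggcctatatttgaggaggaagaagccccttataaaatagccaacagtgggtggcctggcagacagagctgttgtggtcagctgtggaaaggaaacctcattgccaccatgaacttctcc
Motifs were searched on both strands of 27457 promoters of this length, where a CArG box occurred in 1.64%, GGAATG in 13.9% and GTTAAT in 7.37%. Among the 8922 of these that belong to tested genes the shares were 1.39%, 11.3% and 4.43%. Among 338 promoters of genes that rose more than 4-fold the shares were 1.48%, 17.5% and 4.14%, and among 343 of genes that fell more than 4-fold they were 1.75%, 13.4% and 7.87%. These matches describe letters in the window and were not tested for binding.

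After 48 h, 5776 of 10649 genes (54.2%) differed from the pellet, 3437 higher (32.3%) and 2339 lower (22.0%). Counts of list members between 48 h and 0 h, given below, stand against these shares. Changes of more than 2-fold were found for 2536 genes (23.8%), 1376 higher and 1160 lower, and more than 4-fold for 421 higher and 419 lower. Averaged over all genes, the size of the log2 fold change was 0.786 for rat 1, 0.890 for rat 2 and 0.818 for rat 3, and the median gene moved by 0.12. Of the genes that passed, 5715 moved the same way in each of the 3 rats, which the test within these rats had favored. At 4 h 5292 genes had already passed (49.7%), 2120 higher (19.9%) and 3172 lower (29.8%). Between 24 h and 0 h 5526 genes passed (51.9%), and between 48 h and 24 h 920 did (8.64%), 559 higher and 361 lower, so that far fewer genes passed on the second day than on the first. These comparisons share samples. The count for the second day depended on single animals, with 110, 367 and 401 genes without rat 1, 2 and 3, and was 362 without the rat as a block.

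**Figure D1:**
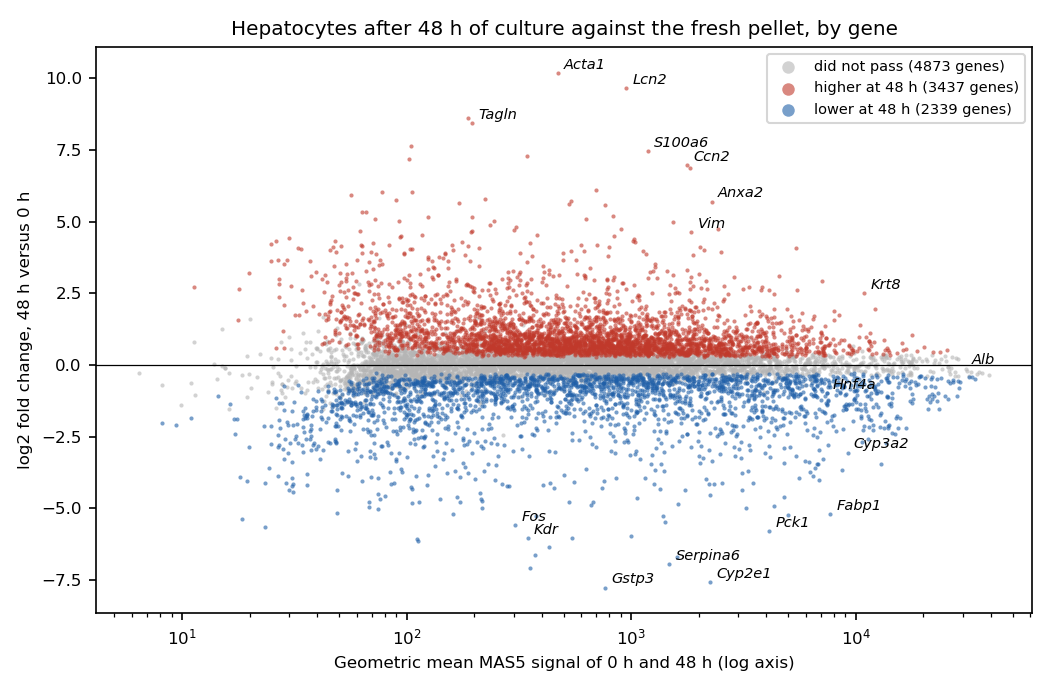
Each point is 1 of 10649 genes, with the geometric mean signal of the 0 h and 48 h samples on a log axis and the log2 fold change of 48 h over 0 h (mean of 3 rats) on the vertical axis. The 3437 genes that were higher are red, the 2339 that were lower are blue, and the bright hepatocyte gene Alb lies near 0 while Cyp2e1 lies at -7.57.

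Acta1 and Lcn2 rose most. The signal of Acta1 was 43.3, 9.71 and 6.26 in the 3 pellets and 15835, 20239 and 13078 at 48 h, a log2 fold change of 10.19 ± 0.59 (limma, adjusted p = 1.76e-06). No 48 h sample came near a 0 h sample, and with 32 added to each signal to damp dim values the change was 8.31, below that of Lcn2 (8.40), so that the order of both depends on how dim signals are treated. Lcn2, the siderophore-binding lipocalin of the acute phase, went from 40.2, 11.5 and 80.0 to 28519, 29258 and 23795 (9.67 ± 0.49), and Tagln, the actin-binding protein transgelin, from 11.7, 8.86 and 11.3 to 3453, 5359 and 2591 (8.43 ± 0.38, or 6.32 with 32 added). All 3 genes were dim in every pellet and bright in every 48 h sample. Several others of the 15 largest rises are genes of intestinal or stratified epithelia, among them Gucy2c, the intestinal guanylate cyclase receptor (7.30 ± 0.28), Gpx2, the gastrointestinal glutathione peroxidase (7.17 ± 0.40), Vil1, the villin of brush borders (5.75 ± 0.56), and Ppl, periplakin of the cornified envelope (5.79 ± 0.58). S100a6, a calcium-binding protein, went from 138, 79.8 and 64.6 to 16457, 17881 and 13311 (7.46 ± 0.27), its relative S100a11 from 212, 129 and 173 to 20639, 21352 and 17620.2 (6.88 ± 0.24), and the small heat shock protein Cryab from 123, 70.0 and 69.4 to 4528, 7984 and 5355 (6.10 ± 0.39). Ccn2 rose by 6.98 ± 0.51. Sult6b2, a sulfotransferase, B3galnt1, a glycosyltransferase, Basp1, a membrane-bound growth-cone protein, and P2rx5, an ATP-gated channel, completed the set with 8.61, 7.63, 6.02 and 6.01. Because their pellet signals were low, these 4 changed less, by 6.38, 5.14, 4.11 and 3.88, with 32 added to each signal, and Gpx2 and Vil1 by 4.85 and 3.90.

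Among the 15 largest falls, the hepatocyte genes lost almost all of their signal. Cyp2e1, the ethanol-inducible P450 of pericentral cells, dropped from 29998, 29692 and 33190.0 to 196, 116 and 191 (-7.57 ± 0.22; limma, adjusted p = 7.07e-08). Gstp3, a glutathione transferase, fell from 11643, 11188 and 11202 to 49.2, 59.4 and 48.3 (-7.77 ± 0.27), with pellets and cultures each within a narrow range. Serpina6, corticosteroid-binding globulin, fell by 6.96 ± 0.21 and Igfals, the acid-labile subunit that carries insulin-like growth factors in plasma, by 6.35 ± 0.50. Pck1, which commits carbon to gluconeogenesis, went from 31102, 35666 and 26561 to 665, 465 and 542 (-5.81 ± 0.30), Aqp9, the glycerol channel, from 7796, 10279.6 and 10253 to 243, 194 and 201 (-5.47 ± 0.17), and Sult1c3, a sulfotransferase, from 14662, 15152 and 19321 to 177, 123 and 177 (-6.70 ± 0.13). For each of these genes the highest 48 h signal lay far under the lowest 0 h signal. Nr0b2, the corepressor SHP, changed by -6.64 ± 0.42, the sulfate transporter Slc13a4 by -6.03 ± 0.14, the muscle protein gene Stac3 by -7.10 ± 0.84, the uncharacterized LOC102554026 by -6.15 ± 0.39 and the cytokine Il1a by -6.08 ± 0.30. Kdr, the VEGF receptor of endothelium (-6.05 ± 0.31), Cxcl12, a chemokine (-5.95 ± 0.15), and Fos (-5.59 ± 0.64) were the others, and they return below with the lists that hold them. With 32 added to each signal all 15 falls were smaller, most of all those of Il1a (-4.30), LOC102554026 (-4.38) and Stac3 (-5.89), while that of Pck1 was -5.73.

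**Figure D2:**
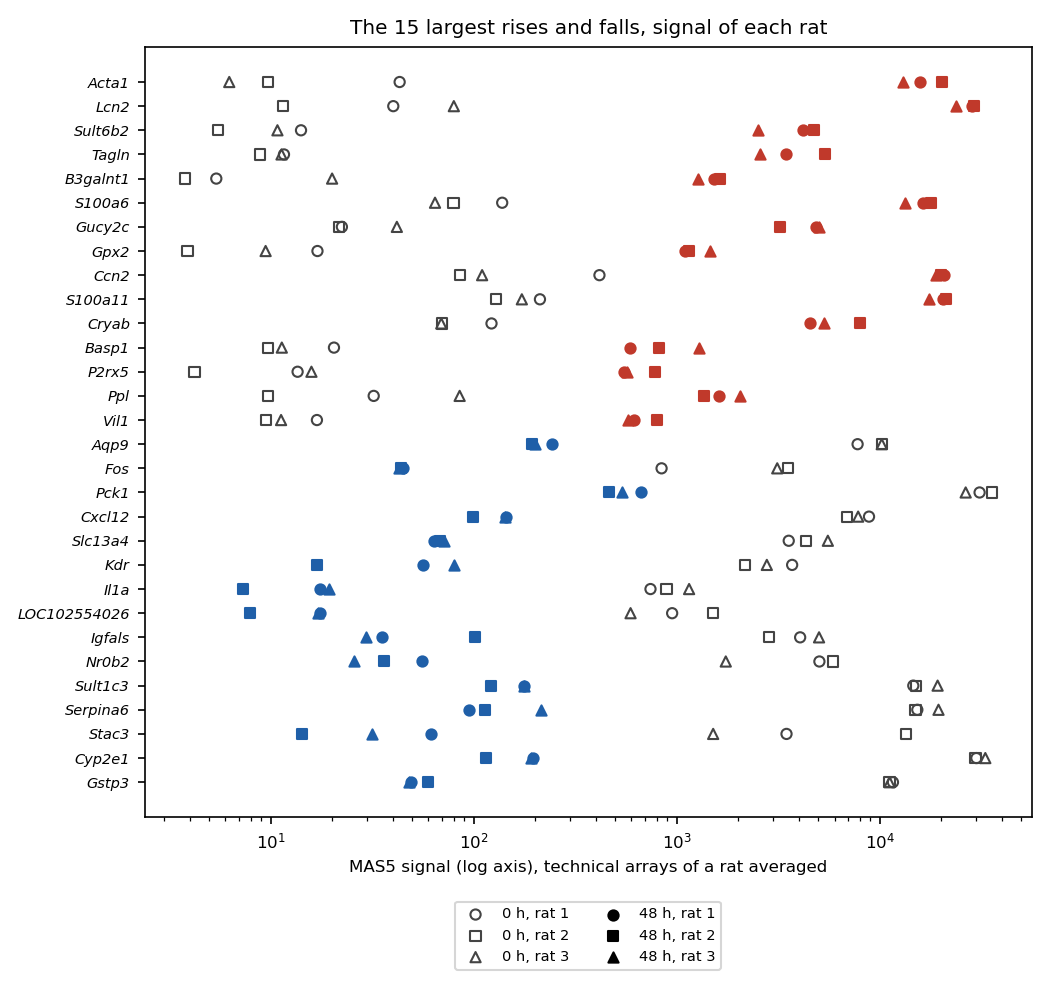
Signals of each rat on a log axis for the 15 genes with the largest rises and the 15 with the largest falls, with open symbols for 0 h, filled symbols for 48 h and a symbol shape for each rat. The groups do not overlap for any of the 30 genes, as for 53.1% of all genes, which the choice of large changes had favored, and Stac3 had the widest spread among pellets, from 1515 to 13558.

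Of 26 transcription factors of hepatocytes, 17 fell and 1 rose, against 22.0% and 32.3% of all genes, and their median log2 fold change was -0.93, against 0.12 over all genes. The falls were graded. Beside Nr0b2, the bile acid receptor Nr1h4 went from 4352, 4943 and 7203 to 1235, 1029 and 1169 (-2.23 ± 0.23) and Cebpa, which encodes C/EBPα, from 5212, 4036 and 7674 to 1343, 1036 and 1664 (-2.04 ± 0.23). Hnf4a, the central regulator of the hepatocyte program, kept about as much signal as it lost (11100.2, 13141 and 7906 at 0 h and 5552, 4467 and 5896 at 48 h; -0.99 ± 0.19), and another of its probe sets gave 0.01. Falls of similar size were measured for Foxa1 (-1.28 ± 0.27), Foxa3 (-1.17 ± 0.20), Onecut2 (-1.32 ± 0.21), Klf15 (-1.25 ± 0.26), the thyroid hormone receptor Thrb (-1.42 ± 0.17), the xenobiotic receptor Nr1i3 (-1.47 ± 0.26) and Creb3l3 (-1.47 ± 0.22), and smaller ones for Nr5a2 (-0.88), Prox1 (-0.76) and the oxysterol receptor Nr1h3 (-0.74). The T-box repressor Tbx3 fell by 2.09 ± 0.24. Signals of Nr1i2, the pregnane X receptor, were 1146, 1153 and 1582 at 0 h and 1390.3, 1032 and 1275 at 48 h, and its change of -0.06 ± 0.17 did not pass, nor did those of Foxa2 (-0.19 ± 0.29), Zbtb20 (-0.04), Rora (-0.12), Mlxipl (-0.14), Thra (0.06), Ppara (-0.63) and Onecut1 (-1.0), whose pellets gave 739, 131 and 4347. Esrra, which acts on mitochondrial genes, rose by 0.90 ± 0.22, a call that was lost without rat 1 (limma, adjusted p = 0.0655). Calls were also lost for Gata4 (-0.72) without the rat block (another of its probe sets gave 0.20), and for Rxra (-0.64) without the block or without rat 1 or rat 2.

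**Figure D3:**
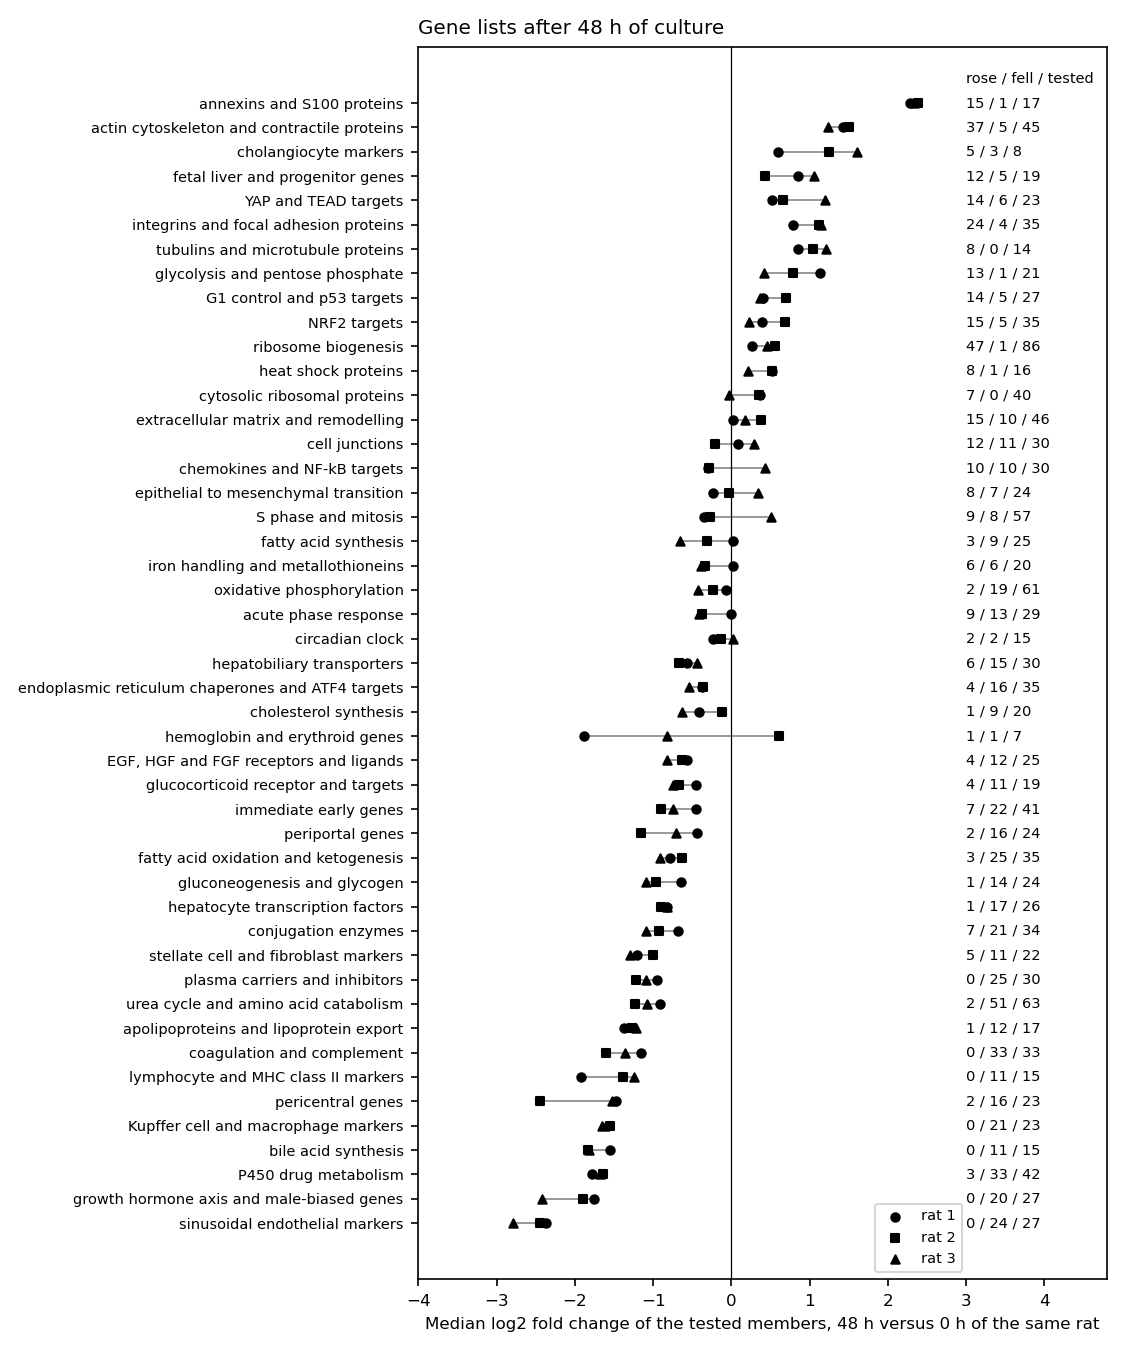
Median log2 fold change of 48 h over 0 h among the tested members of 47 gene lists, 1 symbol for each of the 3 rats, with the members that rose, fell and were tested printed at the right. The lists of P450s, coagulation and bile acid synthesis lie to the left of 0 in each rat, those of actin, annexins and integrins to the right, and the erythroid list spans 0.

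Secreted plasma proteins split. None of 30 carriers and inhibitors rose and 25 fell (median -1.13), and all 33 tested genes of coagulation and complement fell (median -1.47). Serpind1, heparin cofactor II, dropped from 16928, 19619 and 18529.7 to 732, 443 and 583 (-5.00 ± 0.18). The complement regulator C4bpb (-3.21 ± 0.12), plasma prekallikrein Klkb1 (-3.07 ± 0.24) and complement C5 (-2.24 ± 0.16) followed, and the smallest fall of the list was that of C3 (-0.44). The call of C3 was lost without any 1 of the rats (limma, adjusted p = 0.0806, 0.156 and 0.0936), and after quantile normalization 28 of the 33 fell. Serpina7, thyroxine-binding globulin, changed by -4.12 ± 0.14 and Afm, the vitamin E carrier afamin, by -3.86 ± 0.16. Among the abundant carriers, Alb gave 26965, 40544 and 30853 at 0 h and 30005, 35299 and 24575 at 48 h (-0.12 ± 0.19; limma, adjusted p = 0.595), with overlapping groups, and Ttr, transthyretin, changed by -0.38 ± 0.15 without passing (limma, adjusted p = 0.0524), although it passed as lower in 6 alternatives, among them an offset of 32 (limma, adjusted p = 0.0401). Apoa1, the main protein of high-density lipoprotein, had signals of 25964, 30894 and 25829 and 26982, 28314 and 21769 (-0.11 ± 0.15). After quantile normalization the changes of Alb and Apoa1 were 0.25 and 0.26. The brightest signal among the 6 samples was 49370, and whether such bright probe sets were near saturation was not tested. Among 17 apolipoproteins and proteins of lipoprotein export 12 fell, 1 rose, and the largest changes were those of Pltp, the phospholipid transfer protein (-3.98 ± 0.22), Apon (-2.46 ± 0.20), Apoa2 (-2.41 ± 0.23) and Apom (-2.25 ± 0.12).

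Of 42 drug-metabolizing P450s and related enzymes, 33 fell and 3 rose (median -1.85). Cyp1a2, which oxidizes caffeine, went from 20612, 24253 and 26244 to 753, 937 and 1291 (-4.60 ± 0.19) and Cyp3a2, a male-predominant enzyme, from 25550.2, 26913 and 27093 to 4671, 1613 and 4299 (-3.06 ± 0.27). Cyp3a9 (-4.30 ± 0.18), Cyp2c7 (-3.94 ± 0.26) and Cyp2c11, the main male-specific form (-2.21 ± 0.17), fell as well. Cyp1a1, the dioxin-inducible form, had 48 h signals of 323, 87.6 and 153 over pellets of 5.72, 9.21 and 236, and its change of 2.81 ± 1.36 did not pass (limma, adjusted p = 0.107). Without the pellet of rat 3, the high one, its adjusted p was 0.0402. Members of these P450 families share sequence, and cross-hybridization between them was not tested. The conjugating enzymes were mixed, 21 of 34 down and 7 up (median -0.94). Sult1e1, estrogen sulfotransferase, fell from 30001, 29704 and 32154 to 537, 882 and 1158 (-5.22 ± 0.29) and the methyltransferase Inmt changed by -5.28 ± 0.39, whereas Gstm3, a mu-class glutathione transferase, rose from 253, 455 and 175 to 9895, 7002 and 9477 (5.00 ± 0.33). Gstm1 of the same class did not pass, with signals of 23172, 25466 and 25385 and 33219, 30344 and 25494 (0.26 ± 0.14), although it passed as higher after quantile normalization and without the 48 h sample of rat 3.

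The route of bile acids was reduced at several steps. Of 15 genes of bile acid synthesis 11 fell and none rose (median -1.84). Cyp7a1, the rate-limiting enzyme of the classic pathway, went from 16976, 7522 and 6367 to 681, 286 and 739 (-4.15 ± 0.57), Cyp8b1, which sets the cholic acid share, from 4809.7, 12980.5 and 9984 to 199, 241 and 232 (-5.26 ± 0.38), and Amacr, a peroxisomal racemase, from 20384, 27766 and 20869 to 2092, 2240.5 and 1438 (-3.59 ± 0.16). Cyp27a1, which opens the alternative pathway, did not pass (7622, 11036 and 14067 at 0 h and 12512, 12697 and 13198 at 48 h; 0.28 ± 0.16), although it passed as higher after quantile normalization. Slc27a5, the bile acid ligase, fell by 3.44 ± 0.26. Uptake and export differed among 30 transporters, of which 15 fell and 6 rose (median -0.39). The sodium-dependent bile acid importer Slc10a1 dropped from 23029, 31254 and 29643 to 1539, 1285 and 2547 (-4.02 ± 0.23), and the canalicular sterol exporters Abcg5 and Abcg8, which work as a dimer, changed by -4.66 ± 0.38 and -3.75 ± 0.41. The canalicular bile salt pump Abcb11 changed by -0.78 ± 0.19, a call lost without the rat block, without rat 1 or 2 and after quantile normalization. Abcc3, an exporter of the sinusoidal side, rose from 23.9, 10.4 and 260.5 to 406, 271 and 698 (3.40 ± 0.49), although the pellet of rat 3 came close to the 48 h sample of rat 2.

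Genes of fatty acid oxidation were mostly lower at 48 h. In the list of oxidation and ketogenesis 25 of 35 genes fell and 3 rose (median -0.83). Fabp1 had the largest change, from 44918, 49129 and 46627 to 1331, 1436 and 1055 (-5.21 ± 0.18). Pdk4, which restrains pyruvate oxidation (-3.45 ± 0.28), Bdh1, which interconverts ketone bodies (-2.96 ± 0.28), and the peroxisomal enzyme Ehhadh (-2.83 ± 0.17) were the next. Fatty acid synthesis had 9 of 25 genes down, 3 up and 13 not passed (median -0.14), and the difference between both lists was not tested. In the synthesis list the desaturase Fads2 (-2.36 ± 0.22) and the elongase Elovl5 (-1.89 ± 0.11) fell and Scd2, a stearoyl-CoA desaturase, rose (1.89 ± 0.28). Cholesterol synthesis had 9 of 20 down and 1 up, the last being Sqle, squalene epoxidase (0.93 ± 0.19). The mitochondrial respiratory chain shifted little, with 19 of 61 subunits down (31.1%) and 2 up (3.28%), against 22.0% and 32.3% of all genes. The median was -0.24, and Ndufc1 led the list (-0.83 ± 0.11). The direction of this list depended on the scaling, as after quantile normalization 7 fell, 9 rose and the median was 0.05.

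The handling of nitrogen and sugar moved as well. Of 63 genes of the urea cycle and amino acid breakdown 51 fell and 2 rose (median -1.14). Oat, ornithine aminotransferase, went from 4494, 12549.7 and 8714 to 401, 294 and 485 (-4.36 ± 0.38), Gnmt, which consumes S-adenosylmethionine, from 14923, 24101 and 22328 to 2267, 1343 and 2364 (-3.37 ± 0.23), and Otc, the second urea cycle enzyme, from 10857, 14779 and 14016 to 1683, 1407 and 2233 (-2.91 ± 0.16). The other urea cycle enzymes changed less, Cps1 by -0.78 ± 0.14, Ass1 by -0.46 ± 0.13, Asl by 0.41 ± 0.14 and Arg1 by -0.15 ± 0.12, of which Arg1 did not pass, and the calls of Ass1 and Asl were lost without the rat block and with several single samples left out. Gluconeogenesis and glycogen genes fell in 14 of 24 cases, 1 rose, and after Pck1 the largest changes were in Fbp1, fructose bisphosphatase (-1.95 ± 0.18), and Pc, pyruvate carboxylase (-1.88 ± 0.18). Genes of glycolysis and the pentose phosphate route, from a list drawn up for proliferating cells, went the other way, 13 of 21 up and 1 down (median 0.82). At the top were Aldoa, the aldolase of muscle (1931, 1775 and 2110.0 at 0 h and 5869.7, 8273 and 7338 at 48 h; 1.87 ± 0.16), and Slc2a1, the GLUT1 glucose transporter (195, 199 and 209 and 629, 736 and 633; 1.73 ± 0.20). Pklr, the liver pyruvate kinase, and Hk1, the hexokinase of other tissues, did not pass (-0.87 ± 0.40 and 0.29 ± 0.20).

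Genes of both ends of the lobule fell, with a lower median among the pericentral ones. Of 23 pericentral genes 16 fell and 2 rose (median -1.68), and of 24 periportal genes 16 fell and 2 rose (median -0.73). The difference between the lists was not tested. On the pericentral side, the calcium-binding protein Rgn went from 18895, 25179 and 28395 to 818, 781 and 738 (-4.93 ± 0.15) and the vasopressin receptor Avpr1a from 4706, 4442 and 7196 to 202, 159 and 306 (-4.63 ± 0.12). Wnt feedback genes, which mark cells around the central vein, were lower too, with Axin2 at -2.57 ± 0.45, Znrf3 at -1.66 ± 0.26 and Lgr5 at -2.81 ± 0.65, the last call being lost without rat 2. Glul, glutamine synthetase, is confined to the innermost pericentral cells in the liver, and its signal was 6625, 8558 and 9607 in the pellet and 7168, 8649 and 7247 at 48 h (-0.09 ± 0.14, not passed). The probe set of Glul with the highest pellet signal gave -0.91 instead and passed (limma, adjusted p = 0.000595), so that its direction was not settled. On the periportal side, Sds, serine dehydratase (-4.68 ± 0.66), Uroc1, urocanase (-3.17 ± 0.17), Hal, histidase (-2.73 ± 0.17), and Gls2, liver glutaminase (-2.47 ± 0.12), fell with Pck1, whereas Alb, Arg1, Tat (-0.20 ± 0.21), Cyp2f4 (-0.21) and Apoa4 (0.13) did not pass. The members that rose were Slc1a4 (0.98), Ahr (0.63), Asl and Cdh1, whose calls were each lost without rat 1 (limma, adjusted p = 0.19, 0.21, 0.121 and 0.0806).

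**Figure D4:**
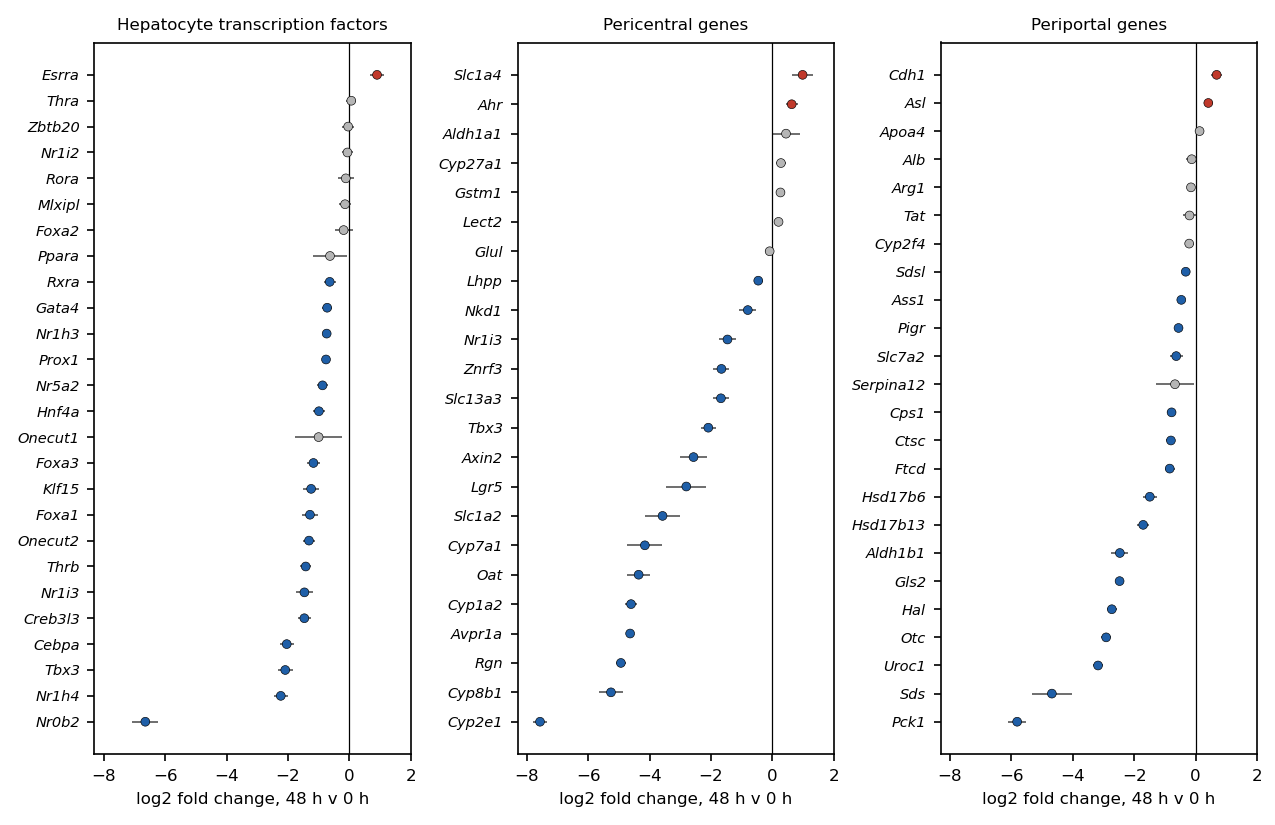
Log2 fold change of 48 h over 0 h with its standard error (limma, n = 3 rats at each time) for the tested hepatocyte transcription factors, pericentral genes and periportal genes. Red genes were higher, blue lower and grey did not pass, and the changes run from -7.57 for Cyp2e1 to 0.98 for Slc1a4.

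The growth hormone axis, which sets the male pattern of liver expression, had one of the lowest medians of all lists. None of 27 genes of the growth hormone axis and of male-biased expression rose and 20 fell (median -1.87). Ghr, the growth hormone receptor, went from 7949.6, 11482 and 14393 to 1608, 1264 and 1853 (-2.82 ± 0.17), its target Igf1 from 27689.6, 27455 and 30233 to 5699, 7563 and 5675 (-2.18 ± 0.17), and Igfbp3, a binding protein for insulin-like growth factors, from 1160.0, 1129 and 1435 to 121, 32 and 76.1 (-4.21 ± 0.28). The male-biased Cyp2a2 (-3.36 ± 0.12) and the urinary protein gene Rup2 (-3.45 ± 0.21) followed. In a medium that held dexamethasone, the list of the glucocorticoid receptor and its targets had 11 of 19 members down and 4 up (median -0.62). Nr3c1, the receptor itself, fell by 1.68 ± 0.15, but another of its probe sets gave 0.40. Among known targets, Fkbp5, a cochaperone of the receptor, rose from 325, 416 and 330.0 to 1981, 2100.1 and 2303 (2.58 ± 0.15), Sgk1, a kinase, fell by 4.15 ± 0.21, and Tat, tyrosine aminotransferase, did not pass (5798, 6048 and 3864 at 0 h and 4866, 4537 and 4081 at 48 h).

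The pellet itself held high signals of early response genes, many of which were lower at 48 h. Of 41 immediate early genes, the fast-induced genes of cell stress and growth stimuli, 22 fell by 48 h and 7 rose (median -0.69). In the fit with liver, 11 of these 41 genes were higher at 0 h than in liver, where 0.141% of all genes were, and they made up 11 of the 15 genes in that direction. Both comparisons use the 0 h samples, and the list was chosen with this pattern known. Fos had a mean signal of 124 in liver, 2107 in the pellet and 43.9 at 48 h, with log2 fold changes of 4.09 ± 0.63 from liver to pellet and -5.59 ± 0.64 from pellet to culture. For Egr1 the 3 means were 3529.5, 14526 and 836, for the cytokine Gdf15 126, 1715 and 95.0, and for Gadd45g 2396, 6041 and 298. Atf3 was at 162, 2982 and 764 and Jun at 2141, 11871 and 6139, so that at 48 h both were still above liver, by 2.24 ± 0.54 and 1.52 ± 0.29. Gadd45b, a stress sensor related to Gadd45g, rose from 377, 453 and 241 to 2278, 2747 and 2429 (2.84 ± 0.19). The fall of Jun by 0.95 ± 0.26 was lost without rat 2 or rat 3, and a second probe set of it gave 0.00. The pellets differed. Rat 1 gave the lowest 0 h signal of the 3 rats for 18 of the 22 genes that fell, for Fos 844, 3537 and 3134 and for Gdf15 585, 2489.6 and 3465 in rats 1, 2 and 3. For the early genes named here that fell, the fall from 0 h thus began above the level of liver. Of the 22 list members that fell, 9 had passed as higher at 0 h than in liver. For Cyp2e1, Pck1 and Cyp7a1 the log2 fold changes from liver to pellet were -0.20, -0.11 and 0.57, and none passed.

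Acute phase genes went both ways, with 13 of 29 down (44.8%) and 9 up (31.0%), against 22.0% and 32.3% of all genes. Their median was -0.26, and 0.11 after quantile normalization. A2m, the rat acute phase antiprotease α2-macroglobulin, rose from 2255, 2077 and 3561 to 23420.1, 15879 and 20277 (2.94 ± 0.17) and Cebpd, which encodes an inflammatory C/EBP protein, by 2.29 ± 0.32, whereas the fibrinogen chains fell. Both were higher at 4 h, by 3.74 and 3.23, and on the second day A2m changed by -0.86 ± 0.17, a call lost without any 1 of the rats (limma, adjusted p = 0.0786, 0.181 and 0.0754). Of 30 chemokines and NF-κB targets 10 rose and 10 fell, against 32.3% and 22.0% of all genes. Cxcl16, a membrane-bound chemokine, went from 225, 146 and 159.5 to 5599, 4727 and 3814 (4.74 ± 0.22), and Il1b (-2.99 ± 0.30) and Ccl5 (-2.83 ± 0.56), products of leukocytes, fell, as did the macrophage markers described below. NRF2 targets, the genes of the oxidative defense, rose in 15 of 35 cases and fell in 5 (median 0.44), with Gpx2, Gstm3, Abcc3 and Gsr, glutathione reductase (1.74 ± 0.16), at the top. Of 16 heat shock proteins 8 rose, led by the small ones Cryab, Hspb1 (2.74 ± 0.27) and Hspb8 (1.27 ± 0.12) and the DnaJ protein Dnajb4 (2.49 ± 0.15), and 1 fell. In the list of endoplasmic reticulum chaperones and ATF4 targets 16 of 35 fell and 4 rose, among the latter Asns, asparagine synthetase (1.93 ± 0.47), whose pellet signals were 1700.2, 343 and 1384 and whose change was 1.05 without rat 2.

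Genes of the cytoskeleton rose widely. Of 45 actin and contractile genes 37 rose and 5 fell (median 1.45). Beside Acta1 and Tagln, the crosslinker Flna went from 338, 163 and 235 to 3935, 5584 and 4355 (4.28 ± 0.31) and Acta2, smooth muscle α-actin, from 174, 67.4 and 147 to 1062, 574 and 939.7 (2.79 ± 0.20). Annexins and S100 proteins, which bind calcium at membranes, rose in 15 of 17 cases and fell in 1 (median 2.17). Anxa2 went from 403, 259 and 304 to 16649, 18764 and 14243 (5.70 ± 0.20) and its partner S100a10 from 530.0, 292 and 669 to 10998, 15256 and 11739 (4.74 ± 0.32). Pellet signals of Anxa2 and S100a6 were below those of liver, with log2 fold changes of -1.13 and -1.79 (limma, adjusted p = 0.0257 and 0.0356), so that these genes rose from a lower baseline than that of the tissue. Of 14 tubulins and microtubule proteins 8 rose and none fell, with Tubb6 at 3.96 ± 0.16 and Map1b at 4.66 ± 0.32. Intermediate filaments changed too, as Krt8 went from 4074, 4027 and 5786 to 24916, 28266 and 25277 (2.52 ± 0.14), its partner Krt18 from 5717, 6076 and 7065 to 22791, 27142 and 22104 (1.93 ± 0.13), and Vim, the vimentin of mesenchymal cells, from 408, 266 and 478 to 8417, 10882 and 8615 (4.63 ± 0.23).

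Adhesion genes followed. Of 35 integrins and focal adhesion proteins 24 rose and 4 fell (median 1.03), with the tetraspanin Cd9 at 5.15 ± 0.34, caveolin Cav1 at 4.72 ± 0.53, and Plat and Plaur of the plasminogen system at 2.90 ± 0.23 and 2.91 ± 0.26. Targets of YAP and TEAD, the coactivator pair that responds to stiffness and spreading, rose in 14 of 23 cases and fell in 6 (median 1.06). Ccn2 had signals of 417, 85.7 and 110.2 at 0 h and 20680.2, 20094 and 19029 at 48 h, the muscle ankyrin repeat protein Ankrd1 rose by 4.64 ± 0.61, the LIM protein Ajuba by 3.04 ± 0.29 and Edn1, endothelin, by 2.41 ± 0.19. Without the rat block 3 members fell. Matrix genes rose and fell about as often as all genes (32.3% and 22.0%), 15 of 46 up and 10 down (6 down without the rat block), with the laminin chains Lamc1 (2.80 ± 0.20) and Lamb3 (2.84 ± 0.45) higher, the latter by 0.23 until 24 h (not passed) and by 2.61 ± 0.45 on the second day, a call lost without rat 2 (limma, adjusted p = 0.0849). Of 24 genes of the epithelial to mesenchymal transition 8 rose and 7 fell, which is also near those shares. Vim and S100a4 (4.01 ± 0.55) rose, the repressor Zeb2 fell by 2.56 ± 0.24, and the cadherin Cdh2 did not pass (0.24 ± 0.14). Cdh1, E-cadherin, rose by 0.69 ± 0.19, a call that was lost without the rat block and without rat 1 or rat 3. Junction genes had 12 of 30 up, with the desmosomal Dsp at 1.63 ± 0.16, and 11 down (7 without the rat block), with the claudin Cldn2 at -2.38 ± 0.20 and Gjb1, the main connexin of hepatocytes, at -1.62 ± 0.12.

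Genes of fetal liver and of progenitor cells rose in 12 of 19 cases and fell in 5 (median 1.15). Tnfrsf12a, the TWEAK receptor, went from 161, 113 and 139.8 to 3984, 6521 and 4839.6 (5.20 ± 0.21) and Sox4 from 224, 231 and 163 to 1393, 2314 and 2881 (3.37 ± 0.28). Some of these changes were late. On the second day alone Sox4 rose by 2.07 ± 0.28, Cd24 by 2.13 ± 0.27 and Ggt1, the fetal marker γ-glutamyltransferase, by 1.89 ± 0.35, with 48 h signals of 89.0, 197 and 103 for Cd24 over pellets of 24.4, 23.6 and 22.7. The call of Ggt1 on that day was lost without rat 2 or rat 3. The list had 5 of 19 members higher and 2 lower at 48 h than at 24 h, against 5.25% and 3.39% of all genes, and 3, 4 and 2 were higher without rat 1, 2 and 3. The classic fetal gene Afp was not among those that rose. Its signal was 765, 1195 and 704 at 0 h and 666, 753 and 281 at 48 h (-0.73 ± 0.20), a fall that was lost without the rat block and without rat 2 or rat 3. Krt19, the keratin of bile ducts and progenitors, went from 84.2, 57.5 and 148 to 31.0, 12.1 and 51.4 (-1.74 ± 0.33; -0.99 with 32 added), a fall that did not pass with the first array of each sample alone. Among 8 cholangiocyte markers 5 rose and 3 fell, and the adhesion protein Epcam (1.43 ± 0.21) and the secretin receptor Sctr (1.73 ± 0.33) were among those that rose.

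Cell cycle genes showed a dip that was not visible between the end points. Between 48 h and 0 h 9 of 57 genes of S phase and mitosis rose, 8 fell and 40 did not pass (median -0.10). The shares that rose and fell were 15.8% and 14.0%, against 32.3% and 22.0% of all genes. After quantile normalization 5 rose, and without the rat block 5 fell. Between 24 h and 0 h 3 rose and 25 fell, against 30.0% and 21.9% of all genes. Mki67, a proliferation marker, had signals of 175, 142 and 61.1 in the pellet, 17, 24.4 and 28.6 at 24 h and 53.9, 117 and 137 at 48 h, a change of -0.27 ± 0.45 from 0 h (not passed) and of 2.07 ± 0.45 on the second day (limma, adjusted p = 0.0215). Without rat 1 or rat 2 the last call was lost (limma, adjusted p = 0.0532 and 0.19). On that day 12 members of the list rose and none fell, against 5.25% and 3.39% of all genes, and without rat 1, 2 and 3 those that rose numbered 1, 2 and 10. Signals of the S phase genes Ccne2 (1.47 ± 0.24) and Gmnn (1.59 ± 0.18) were higher than in the pellet, and Mcm10 fell by 1.62 ± 0.15. Of 27 genes of G1 control and p53 14 rose and 5 fell (median 0.62). Ccng1, a p53 target, went from 532, 449 and 593 to 3856, 5158 and 4689 (3.12 ± 0.16), the death receptor Fas rose by 2.33 ± 0.36 and the inhibitor Cdkn1a by 1.21 ± 0.30, the last call being lost without the block and without rat 2 or 3, while Ccnd1, cyclin D1, did not pass (-0.56 ± 0.23) but did in 9 alternatives, among them quantile normalization (limma, adjusted p = 0.0307). Ribosome biogenesis rose in 47 of 86 genes and fell in 1 (median 0.39), and its median was 1.15 at 4 h and 0.71 at 24 h. Sdad1 (1.45 ± 0.14) and Pno1 (1.21 ± 0.11) had the largest changes of this list. Cytosolic ribosomal proteins moved less, with 7 of 40 up (17.5%) and none down (median 0.22), against 32.3% and 22.0% of all genes. After quantile normalization, however, 37 rose (median 0.58).

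**Figure D5:**
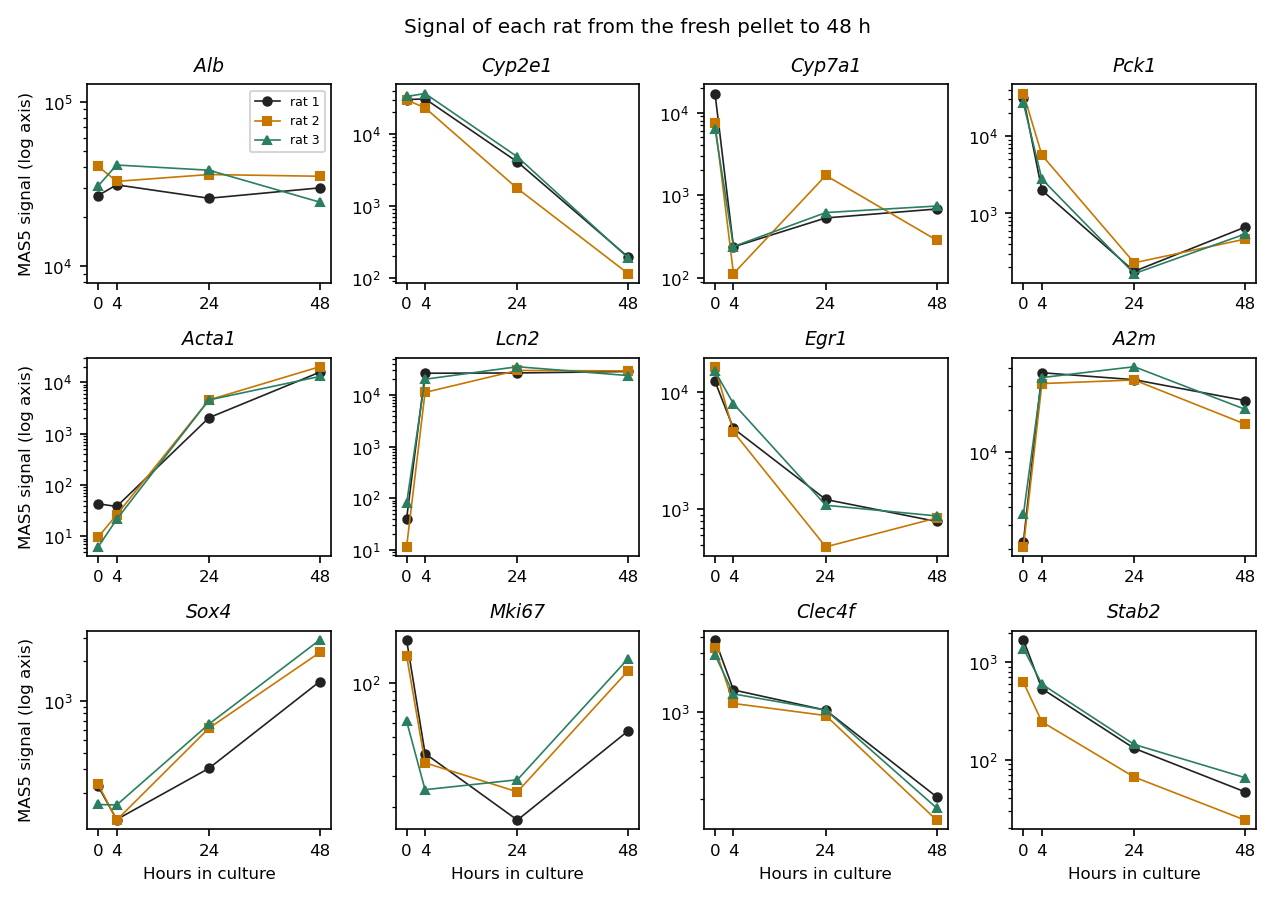
Signal on a log axis at 0, 4, 24 and 48 h for 12 genes, 1 line for each rat. Alb stays near its 0 h signal, Cyp2e1 and the Kupffer cell gene Clec4f fall through both days, Pck1 and Cyp7a1 drop within 4 h, Lcn2 and A2m are high from 4 h, Acta1 and Sox4 climb later, and Mki67 passes through a low at 4 to 24 h.

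Markers of the non-parenchymal cells that remain after isolation fell together with the liver program. Of 27 sinusoidal endothelial markers 24 fell and none rose (median -2.82). Stab2, a scavenger receptor, went from 1693, 621 and 1383 to 46.7, 24.0 and 65.3 (-4.76 ± 0.15), and Kdr and the phosphatase Ptprb (-5.00 ± 0.38) fell too. The summed signal of this list was 14852 to 21982 at 0 h and 2306 to 2769.7 at 48 h. Of 23 Kupffer cell and macrophage markers 21 fell and none rose (median -1.73), with summed signals of 33802 to 36115 and 9747 to 12075. Clec4f, specific to Kupffer cells, dropped from 3791, 3264 and 2872 to 207, 135 and 169 (-4.30 ± 0.14) and Cd68 from 687, 884 and 894 to 244, 233 and 216 (-1.82 ± 0.18). By 4 h 16 of the 23 had fallen and 1 had risen (median -0.71), and by 24 h 18 had fallen and 1 had risen (median -0.82). The fall went on, as 17 of the 23 were lower at 48 h than at 24 h, against 3.39% of all genes (6, 15 and 14 without rat 1, 2 and 3), with Clec4f at -2.58 ± 0.14 and Cd5l at -2.21 ± 0.20. Of the endothelial markers 11 of 27 were also lower on the second day. Of 15 lymphocyte and class II markers 11 fell and none rose, led by the class II chains RT1-Da (-3.05 ± 0.15) and RT1-Ba (-3.01 ± 0.15, although another of its probe sets gave 0.45).

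Stellate cell and fibroblast markers did not move as 1 group. Of 22 tested, 11 fell and 5 rose (median -1.05), with summed signals of 13746 to 22214 at 0 h and 15941 to 18875 at 48 h. These sums follow their brightest members and do not show that the markers as a group were kept. At 0 h Cxcl12 alone gave 8874, 6939 and 7844, and at 48 h Tagln gave 3453, 5359 and 2591. Lrat, which stores vitamin A in quiescent stellate cells, went from 658, 221 and 718 to 26.5, 8.52 and 57.4 (-4.33 ± 0.27). Cxcl12, also in this list, fell too, but its mean signal was 8136 in liver and 7846 in the pellet (-0.05 ± 0.19, not passed). The list median for that step was -0.995, and the cells that Cxcl12 came from were not tested. Those that rose were Tagln, Vim, Acta2, Col1a1 and Des (0.70, lost without the rat block), of which Tagln and Acta2 are also in the actin list. Col1a1, the fibrillar collagen, had signals of 98.9, 42.5 and 44.7 at 0 h and 190.1, 84.9 and 184 at 48 h (1.33 ± 0.23). The part of stellate cells in the rise of the cytoskeleton was not tested. Of 7 hemoglobin and erythroid genes 1 rose, 1 fell and 5 did not pass. Their summed signals were 2589 to 6099 at 0 h and 4245 to 6343 at 48 h. Hbb, a hemoglobin chain of residual red cells, varied widely among pellets (921, 69.7 and 355) and was lower at 48 h (108, 22.4 and 54.4; -2.48 ± 0.70), a call lost without the rat block, without rat 3 and with the first arrays alone.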

How the data were processed

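RNA was hybridized to Affymetrix rat arrays (RG230-2), and the deposited values are linear intensity signals that the authors computed with the MAS 5.0 algorithm (the submitters' notes also name affy) and scaled to 500. The mean of every array without the top and bottom 2% was 500 in the files. All 43 columns had a sample and 0 were left out, and the number of rats limits the precision. Signals were converted to log2 and technical arrays averaged per rat and time. Probe sets were kept if above the array median on at least 5 of 43 arrays (10%) and annotated to 1 gene (20832 probe sets with 1 gene, 436 with several, 20764 of the former also found in the RefSeq gene table), and each gene was represented by its brightest probe set on average, which left 10649 genes. Of 2077 further probe sets of genes that passed, 86.8% moved the same way.

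limma 3.58.1 in R 4.3.3 was fitted to the 12 cultured and pellet samples with the rat as a block, with Benjamini-Hochberg adjustment over all genes (threshold 0.05, two-sided). Liver was compared in a fit of all 15 samples without the block, because only 1 of the 3 livers deviated together with the samples of its own rat (median correlation of deviations from the group means -0.004, -0.060 and 0.202 for the livers of rats 1, 2 and 3, 4 pairs each). The rat numbers come from the labels, which tie pellet and cultures to the same animal. Residuals of samples of the same rat correlated with a median of 0.42 (18 pairs, lowest 0.21). The value between rats, -0.21 (36 pairs), adds nothing, as residuals from a mean of 3 rats sum to 0. The median signal of the arrays also followed the rat number, with 111, 88.8 and 97.6 for rats 1, 2 and 3 at 0 h and 110, 88.9 and 96.4 at 48 h. Its part in the correlation was not tested. The script was tested on simulated data in which few genes changed and arrays were not scaled. That test cannot tell how the scaling acts where 54.2% of genes passed. Named genes were the 15 largest rises and falls above the median signal and the same way in each rat, up to 4 members of each list by size of change among those that passed, all transcription factors and zonation genes, and a fixed set of markers. C3, Des, Epcam and Gadd45b were added after their values were seen. Members of the 48 lists and their rules were chosen with earlier results of these data known. Alternatives covered the scaling, an offset of 32, the technical arrays, the filter, the choice of probe set, the samples and block of the fit, the prior variance, the threshold and the omission of each rat or sample.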

Additional observations from a re-analysis of the deposited data

How the results depend on the processing

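The number of genes that changed between 48 h and 0 h (5776) was 4539 with no replicate block, that is without the pairing by rat, and 4000 to 5262 when 1 rat or 1 sample was left out. Requiring more than 2-fold left 2536 genes at 48 h and 2375 at 24 h, where 5526 had passed and 3931 to 5528 did with 1 rat or sample left out. The count between 48 h and 24 h (920) was the least stable. It was 362 without the pairing by rat and 456 in the fit of all 15 samples without it. At an adjusted p under 0.01 it was 350, above 2-fold 394, and with 1 rat or sample left out 110 to 906. The cause was not tested. The share of calls that were higher was 59.5%, 60.4% with arrays centered on their median and 54.1% after quantile normalization. Of 216 genes named with a change at 48 h, 192 passed, 173 of them in every alternative, and none that passed turned its direction. Of the 24 that did not pass, 9 passed in at least 1 alternative, among them Cyp27a1, Gstm1 and Apoa4, each as higher after quantile normalization. Genes that had not passed turned direction after quantile normalization (0.25 for Alb, 0.26 for Apoa1, 0.23 for Arg1 and 0.25 for Glul), with the median in place of the mean of technical arrays (0.014 for Zbtb20) and among the fits with 1 rat or sample left out (-0.26 to 0.076 for Alb, -0.20 to 0.042 for Apoa1, -0.52 to 0.25 for Foxa2, -0.20 to 0.065 for Glul, -0.0096 to 0.45 for Hk1, -0.99 to 0.45 for Mki67, -0.39 to 0.025 for Mlxipl, -0.24 to 0.096 for Nr1i2, -0.42 to 0.036 for Rora, -0.072 to 0.18 for Thra and -0.32 to 0.23 for Zbtb20). Of 288 counts of list members under another scaling or without the pairing by rat, 28 moved by over 1.5 times, 14 after quantile normalization, 14 without the pairing by rat and 0 with centered arrays. The number of rats and the brightness of dim probe sets limit what can be told of genes near background. Of the named genes, 29 had a mean signal under 32 in a group. With 32 added to each signal, Sctr changed by 0.75, Plaur by 1.57, S100a4 by 2.14, Ccl5 by -1.49 and Lgr5 by -1.39.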

Other observations

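Of 20 genes of iron handling and metallothioneins 6 rose and 6 fell, near the 32.3% and 22.0% of all genes. The exporter Slc40a1, ferroportin, went from 2111, 1876 and 2077 to 5581, 5441 and 5273 (1.43 ± 0.16), and Tfr2, the iron sensor of hepatocytes, from 4752, 4912 and 5436 to 1605, 1266 and 1922 (-1.67 ± 0.12). Steap3, an iron reductase, fell by 1.20 ± 0.24, and Mt2A, a metallothionein, rose by 1.19 ± 0.41, a call lost without rat 1 or rat 2. Without the rat block 3 members fell. Receptors and ligands of the EGF, HGF and FGF families had 12 of 25 members down and 4 up. Fgfr1, an FGF receptor of mesenchymal cells, was at -2.73 ± 0.54 (-1.37 with 32 added) and Egf, the epidermal growth factor, at -2.36 ± 0.16. The ligands Pdgfa and Btc rose, from 124, 94.0 and 118 to 592, 754 and 863 (2.71 ± 0.19) and from 78.9, 22.9 and 55.3 to 238, 147 and 151 (1.91 ± 0.29).

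Of 15 circadian clock genes, 2 rose, 2 fell and 11 did not pass (median -0.27), and 4 fell after quantile normalization. Nfil3 fell by 2.15 ± 0.21 and Hlf by 1.20 ± 0.19, and Per1 rose by 1.55 ± 0.35. The hour of the day at which pellets and cultures were taken was not given, and time in culture and time of day cannot be told apart. Lox, lysyl oxidase, differed among animals at the start, with pellet signals of 122, 3587 and 53.4 and 48 h signals of 3408, 7991 and 3338 (3.97 ± 0.93), and its call was lost without the rat block and without rat 1 or rat 3.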
